A study of Mus musculus with 36 samples.

Results

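The libraries described here are those of nephron progenitor cells (NPCs) from which β-catenin had been removed before the cells were placed in high or low CHIR. They comprised 8 of the 36 RNA-seq libraries of the series, chosen by their labels: 4 removal libraries in high CHIR (5 µM) and 4 in low CHIR (1.25 µM). At each dose 2 libraries came from Cre removal and 2 from Cas9 removal. The 8 libraries of the same table in which β-catenin was intact served as the comparison. The question that this contrast addresses is how much of the response to high CHIR was still measured after this removal. By the paper's immunostaining, removal reduced β-catenin protein and did not abolish it.

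CHIR (CHIR99021) is a small-molecule inhibitor of the kinase Gsk3. In unstimulated cells Gsk3 acts within the destruction complex, which marks β-catenin for degradation, and inhibition of Gsk3 lets β-catenin accumulate, enter the nucleus and join Tcf/Lef factors on DNA. In the kidney, NPCs self-renew under weak Wnt input and undergo a mesenchymal-to-epithelial transition under strong input, switching on *Wnt4*, *Lef1*, *Jag1* and *Lhx1* and switching off *Cited1* and *Six2*. Gsk3 also phosphorylates many proteins outside this pathway, among them glycogen synthase.

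All NPCs were primary cells of embryonic mouse kidneys, grown in NPC expansion medium. Cells of genotype B-catenin_c_c are homozygous for a conditional *Ctnnb1* allele. They received Cre mRNA in the Cre positive groups, and none in the Cre negative groups. Cells of genotype Cas9-eGFP make Cas9 and GFP constitutively, and received *Ctnnb1* sgRNA in the removal groups or GFP sgRNA in the control groups. All groups received mCherry mRNA by lipofection, were held in low CHIR while the gene was being removed, were then moved to the stated dose, and were sorted for mCherry before RNA isolation. Controls and removal groups therefore share the transfection, the sort and the earlier time in low CHIR. Each group held 2 libraries, and the labels do not say whether these came from separate animals, so that each p-value measures the spread between these libraries, which may be technical.

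The guides are shown because they define where Cas9 was directed to cut *Ctnnb1*. The 4 designed guides, written 5′ to 3′ in lower case and followed in capitals by the PAM found beside each in the GENCODE transcript, were
sgRNA1: atgagcagcgtcaaactgcgTGG
sgRNA3: agccaagcgctggacattagTGG
sgRNA5: agctacttgctcttgcgtgaAGG
sgRNA6: gagattatgcagtgtcgtgaTGG
All 4 matched the minus strand of the plus-strand gene on GRCm38, within its coding exons. The targets lay at chr9:120950987-120951006 for sgRNA1 and chr9:120951011-120951030 for sgRNA3, both in exon 4 of the protein-coding transcript with the most exons. Those of sgRNA5 and sgRNA6 lay at chr9:120950729-120950748 in exon 3 and chr9:120951618-120951637 in exon 6. The study's guide names place sgRNA1 in exon 2 and sgRNA3 in exon 3, which differs from the exon found here.

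*Ctnnb1* itself was read at 3085 and 2451 normalized counts in the Cre positive libraries in low CHIR and at 1652 and 1039.6 in the *Ctnnb1* sgRNA libraries. In high CHIR the values were 2254 and 2583 for Cre positive and 1629.9 and 1270.1 for *Ctnnb1* sgRNA. The 8 intact libraries ranged from 2207 to 3880.1, so the Cas9 removal libraries lay below every control and the Cre removal libraries overlapped the controls. Dose did not separate the removal libraries, with a log2 fold change of -0.03 ± 0.17 (SE, limma adjusted p = 0.972). A count over the whole gene includes edited transcripts and exons outside the deleted part, so it does not measure how completely β-catenin protein was lost. Immunostaining in the paper, before the change of dose, showed membrane β-catenin reduced but not absent after both kinds of removal. In bulk libraries, a response in only some of the cells and a smaller response in every cell cannot be told apart, nor can fewer cells of a type and less RNA per cell.

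The 8 removal libraries held 14537850 to 22657180 reads on genes. *Six2*, *Eya1*, *Wt1* and *Sall1*, which mark NPCs, were read at 781 normalized counts or more in every removal library. Of the other NPC markers, *Cited1* was read at 1855 or more, *Osr1* at 1063 or more and *Meox1* at 35.2 to 291. Of the ureteric markers, *Ret*, *Calb1* and *Wnt11* reached at most 10.3 normalized counts, whereas *Hoxb7* was read at 237 to 452, *Gata3* at 48.5 to 174 and *Epcam* at 47.0 to 166. Of the endothelial markers *Pecam1*, *Cdh5*, *Tek* and *Kdr*, the highest value was 21.9 (*Kdr*), and of the blood markers *Ptprc*, *Csf1r* and *Hba-a1* it was 36.6 (*Hba-a1*). Of the stromal markers, *Foxd1* and *Tbx18* reached at most 32.2. The others were read higher, *Pdgfra* at 178 to 762, *Pdgfrb* at 574 or more, *Col3a1* at 1316 or more and *Col1a1* at 3245 or more.

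High CHIR still changed gene expression after β-catenin removal. Of the 16780 genes tested, high CHIR raised 130 (0.775%) and lowered 60 (0.358%). A call needed an adjusted p below 0.05 and a shift of 0.5 or more on the log2 scale (limma, with the line as a block). In the intact controls the same thresholds gave 1008 higher (6.01%) and 1370 lower (8.16%). Of the genes raised after removal, 112 of 130 had all 4 high libraries above all 4 low libraries, and of those lowered 48 of 60 had no overlap. Over all genes, 2.82% separated upward and 2.08% downward in this way, against 9.07% and 10.9% in the controls. The calls were made on these same libraries, so the lack of overlap follows largely from the calls and is not separate support. When each replicate number was treated as a block within its line, 562 genes were higher (3.35%) and 366 lower (2.18%), and these included all 130 and all 60. This fit used the same libraries, so it is not separate support either. Leaving out 1 library lowered the count of raised genes to 69 without Cas9 *Ctnnb1* sgRNA high CHIR replicate 1, 74 without its replicate 2 and 86 without Cas9 *Ctnnb1* sgRNA low CHIR replicate 1. The lowered genes fell to 21, 17 and 17 without these libraries, to 27 without Cas9 low CHIR replicate 2 and to 36 without Cre positive low CHIR replicate 1, and were 92 without Cre positive high CHIR replicate 1.

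The responses after removal and in the intact controls ran in the same direction for most genes called after removal, and the sets share no library. Of the 130 genes raised after removal, 104 (80%) were also called higher in the intact controls, 22 were not called and 4 were called lower. Of the 60 lowered, 53 (88.3%) were also called lower and 7 were not called. Read from the intact side, 104 of 1008 raised genes (10.3%) and 53 of 1370 lowered genes (3.87%) were called the same way after removal. Over all genes 0.775% were called higher and 0.358% lower after removal. Of the intact calls, 886 of the 1008 (87.9%) and 1130 of the 1370 (82.5%) had the same sign after removal. Over all genes 50.3% had a positive and 49.7% a negative residual value. Across all 16780 genes the log2 fold changes had a Pearson r of 0.575 and a Spearman rho of 0.409, given as a description because genes are not independent replicates. A direct test of the difference, the removed minus the intact response, called 308 genes with a more positive response after removal (1.84%) and 101 with a more negative one (0.602%). Leaving out Cas9 GFP sgRNA high CHIR replicate 2 lowered the intact counts to 591 and 876 and the more negative differences to 57, and leaving out its replicate 1 gave 645 raised genes in the controls. Without Cas9 *Ctnnb1* sgRNA high CHIR replicate 2 the differences numbered 205 and 66.

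**Figure D1:**
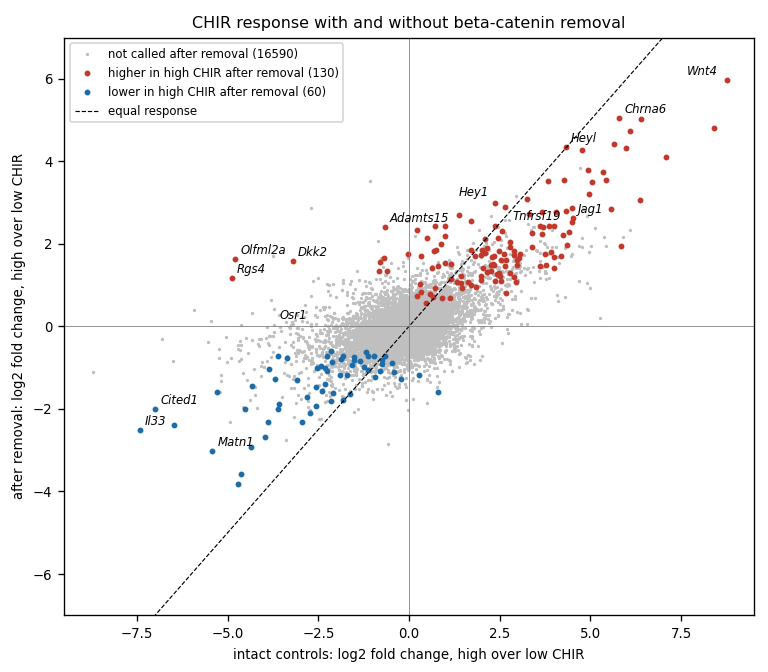
Each point is 1 of 16780 genes, with the log2 fold change of high over low CHIR in the intact controls on the x axis and after β-catenin removal on the y axis. The 130 red and 60 blue genes passed both thresholds after removal. Most lie between the horizontal axis and the dashed line of equal response, while *Rgs4*, *Olfml2a* and *Dkk2* lie above the axis at negative x values.

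*Wnt4* (GRCm38 chr4:137277489-137299726), the Wnt ligand that drives the epithelial transition of induced NPCs, had the lowest p-value of the residual response. In low CHIR it was read at 12.4 and 6.44 normalized counts in the Cre positive libraries and 17.4 and 11.9 in the *Ctnnb1* sgRNA libraries. In high CHIR the same groups held 479 and 720.0 (Cre) and 1240.4 and 847 (Cas9). The doses did not overlap, and the log2 fold change was 5.97 ± 0.27 (SE, n = 4 per dose, limma adjusted p = 2.47e-06). The intact controls rose further, from a range of 7.77 to 23.8 to one of 5029.6 to 5973, a log2 fold change of 8.76 ± 0.29. The response after removal was smaller by 2.80 ± 0.44 on the log2 scale (difference -2.80, limma adjusted p = 0.00283). In high CHIR every removal library thus held less *Wnt4* than every control, and more than every library in low CHIR.

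Several genes of nephron induction rose with the dose. Of 30 tested members of the list, 9 were higher in high CHIR after removal and none was lower, with a median log2 fold change of 0.92 against 0.00 over all genes tested. Over all genes, 0.775% were called higher after removal and 0.358% lower. In the intact controls 23 were higher and 1 lower, with a median of 2.36, where 6.01% and 8.16% of all genes were. Under the replicate block 15 were higher and 3 lower after removal, where 3.35% and 2.18% of all genes were. Leaving out 1 library gave 5 to 10 higher, the 5 without Cas9 *Ctnnb1* sgRNA low CHIR replicate 1 or high CHIR replicate 2. The 9 were *Wnt4*, *Jag1*, *Bmp2*, *Dach1*, *Bmpr1b*, *Pax2*, *Cdh6*, *Tgfa* and *Ccnd2*.

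*Jag1* (GRCm38 chr2:137081456-137116644), a Notch ligand of the early nephron, was read at 265 and 426 in Cre positive and 362 and 443 in *Ctnnb1* sgRNA libraries in low CHIR. It reached 1836 and 1481 (Cre) and 4151 and 2282 (Cas9) in high CHIR, where the controls held 8707 to 14833. The doses were apart in both lines, with a log2 fold change of 2.62 ± 0.23 (limma adjusted p = 2.78e-04), and the response was smaller than the intact one of 4.53 ± 0.14 (adjusted p of the difference = 0.00193). The ligand *Bmp2* rose from a range of 30.2 to 61.5 to one of 237 to 379 normalized counts, a log2 fold change of 2.77 ± 0.29 against 3.67 ± 0.20 in the controls. *Dach1*, a transcriptional cofactor that works with Eya proteins, rose by 2.42 ± 0.30 against 3.62 ± 0.17. The Bmp receptor gene *Bmpr1b* rose by 1.72 ± 0.25 against 2.90 ± 0.22. The tests of the difference gave limma adjusted p-values of 0.266, 0.0742 and 0.0701 for these 3 genes. High over low CHIR in the separate wild-type NPC libraries gave 2.46 for *Jag1*, -0.28 for *Bmp2*, 1.56 for *Dach1* and 2.36 for *Bmpr1b*. *Pax2*, a transcription factor of the whole nephron lineage, rose by 1.62 ± 0.26 (adjusted p = 0.0106), but its call was lost without Cas9 low CHIR replicate 1 (0.0517), Cas9 high CHIR replicate 1 (0.0665) or Cas9 high CHIR replicate 2 (0.0619), adjusted p in brackets.

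Other inducers of the nephron did not pass the test. *Lef1*, a DNA-binding partner of β-catenin that is itself a target, was read at 38.3 to 78.6 in low CHIR and 102 to 279.9 in high CHIR after removal. Its log2 fold change was 1.30 ± 0.33 (limma adjusted p = 0.101, and 0.00131 under the replicate block). The controls went from a range of 68.2 to 124 to one of 913 to 1568, and the responses differed by -2.48 ± 0.45 (adjusted p = 0.00854). *Lhx1*, a transcription factor of the renal vesicle, had 1.03 ± 0.26 after removal (adjusted p = 0.101, and 0.0158 under the block) and 2.69 ± 0.37 in the controls. *Fgf8*, a ligand needed for survival of induced cells, was too low to be tested, at 0 to 2.07 normalized counts in low and 0 to 8.29 in high CHIR after removal, and 8.99 to 14.4 in the controls in high CHIR.

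Genes of the Notch pathway included targets whose fold change after removal was not below that of the controls. Of 13 tested members, 4 were higher (*Hey1*, *Heyl*, *Hey2* and *Jag1*) and none lower, with a median of 0.34. The shares over all genes were 0.775% higher and 0.358% lower. The intact controls gave 4 higher and 2 lower with a median of 0.17, where 6.01% and 8.16% of all genes were called. *Hey1*, *Heyl* and *Hey2* encode bHLH repressors that Notch signaling switches on. *Hey1* (GRCm38 chr3:8663359-8667256) was read at 205 and 130.0 in Cre positive and 487 and 385 in *Ctnnb1* sgRNA libraries in low CHIR. In high CHIR it held 1802 and 1147 (Cre) and 3117 and 3134 (Cas9), around the 2025 to 2123 of the controls. The log2 fold change was 2.99 ± 0.19 after removal (limma adjusted p = 3.09e-05) and 2.38 ± 0.20 in the controls, a difference of 0.61 ± 0.30 (adjusted p = 0.421). In the separate wild-type NPC libraries *Hey1* did not rise, with a log2 fold change of -0.87 (limma adjusted p = 0.201).

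*Heyl* rose from a range of 14.2 to 85 to one of 456 to 1525 normalized counts after removal, and from a range of 13 to 73.5 to one of 539 to 879 in the controls. Its log2 fold changes were 4.34 ± 0.42 and 4.33 ± 0.42, with a difference of 0.02 ± 0.73 whose SE leaves room for a change in either direction. *Hey2* was read at 6.21 to 30.9 in low and 42.4 to 121 in high CHIR after removal, against 12.4 to 27.7 in the controls in high CHIR. Its log2 fold change of 2.33 ± 0.48 (limma adjusted p = 0.0445) was called in 2 of the 8 fits that left out a library, and was lost without Cas9 low CHIR replicate 1 (0.162), Cas9 low CHIR replicate 2 (0.0994), Cre low CHIR replicate 1 (0.0927), Cas9 high CHIR replicate 1 (0.195), Cas9 high CHIR replicate 2 (0.143) or Cre high CHIR replicate 2 (0.0801), adjusted p in brackets. The difference from the intact response of 0.22 ± 0.41 did not pass (adjusted p = 0.137). *Hes1*, the most widely used Notch target, had a log2 fold change of -0.29 after removal (adjusted p = 0.63) and of -1.52 in the controls (adjusted p = 0.00296).

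**Figure D2:**
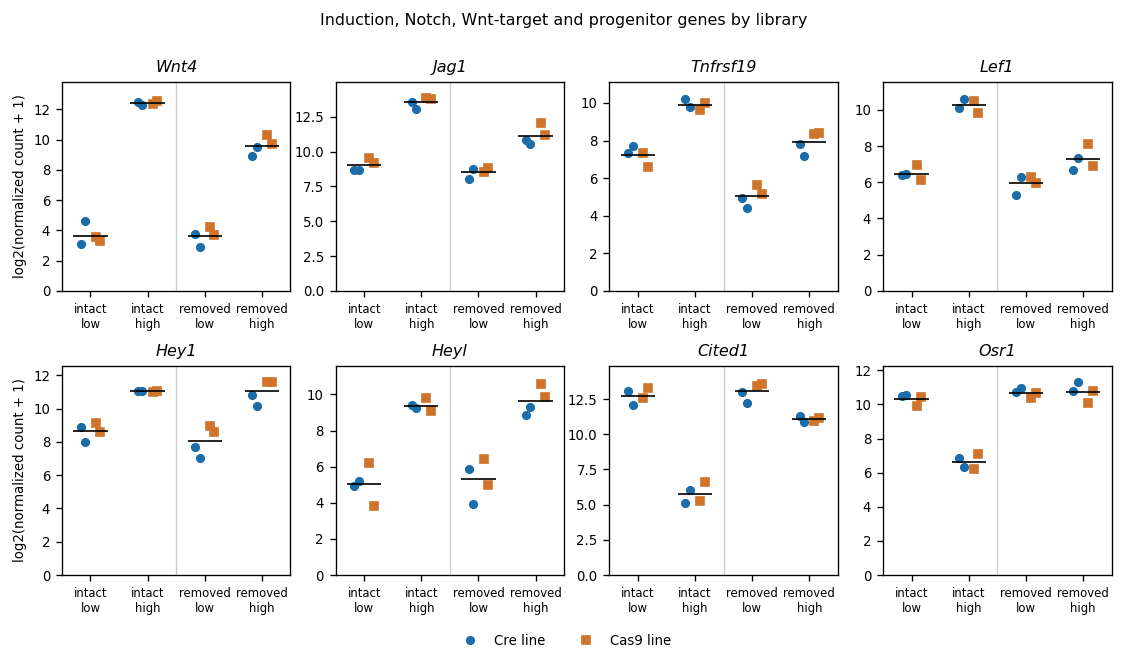
Normalized counts of 8 genes in the 16 libraries, as log2(normalized count + 1) on the y axis, by β-catenin status and CHIR dose on the x axis. Circles are Cre line libraries, squares are Cas9 line libraries and bars are means of 4 libraries. *Wnt4* and *Jag1* after removal in high CHIR lie between the low CHIR and the intact high CHIR libraries, *Hey1* reaches the intact level in the Cas9 but not in the Cre libraries, *Heyl* overlaps it, *Cited1* falls part of the way, and *Osr1* lies near its low CHIR level.

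Among direct feedback and target genes of the Wnt pathway, 2 passed the test, where 0.775% of all genes were called higher and 0.358% lower. Of 20 tested, 2 were higher after removal and none lower, with a median of 0.68, against 13 higher and 4 lower with a median of 1.38 in the controls. In the controls 6.01% of all genes were called higher and 8.16% lower. After removal, at p below 0.05 before adjustment, 10 of the 20 were higher and 3 lower, where 1117 and 905 of all 16780 genes were. The replicate block called 7 higher and 2 lower, where 3.35% and 2.18% of all genes were. The 2 that passed the test were *Tnfrsf19* and *Kremen1*. Of these, 1 was called without Cas9 *Ctnnb1* sgRNA low CHIR replicate 1 or either of its high CHIR libraries. *Tnfrsf19*, a TNF receptor family member also known as Troy, was read at 30.0 and 20.6 in Cre positive and 48.5 and 34.9 in *Ctnnb1* sgRNA libraries in low CHIR, below the 96.3 to 207 of the controls. In high CHIR it rose to 226 and 143 (Cre) and 326 and 339.8 (Cas9), below the 792 to 1172 of the controls. The levels were lower at both doses while the fold changes were alike in size, 2.90 ± 0.25 after removal (limma adjusted p = 2.53e-04) and 2.66 ± 0.21 in the controls, with a difference of 0.24 ± 0.33.

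*Kremen1*, a receptor for Dkk antagonists, rose by 1.52 ± 0.24 (limma adjusted p = 0.0102), a call lost without Cas9 low CHIR replicate 1 (0.0517), Cas9 high CHIR replicate 1 (0.0629) or Cas9 high CHIR replicate 2 (0.0521), adjusted p in brackets. In the separate wild-type NPC libraries *Kremen1* had -0.28 and *Tnfrsf19* 1.63, neither called (limma adjusted p = 0.55 and 0.13). *Axin2*, the scaffold of the destruction complex and the usual readout of β-catenin activity, was read at 28.3 to 69.5 in low and 61.6 to 107 in high CHIR after removal. Its log2 fold change of 1.03 ± 0.29 did not pass (adjusted p = 0.151) but did under the replicate block (0.0215), and the controls gave 1.58 ± 0.27. Of the other feedback genes, the responses of *Sp5* (1.04 against 4.90 in the controls), *Notum* (1.96 against 4.69) and *Znrf3* (0.57 against 1.32) were called smaller after removal than in the controls, and none of the 3 was called in the residual response.

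Promoter windows are shown for genes of this response because Tcf/Lef factors, the partners of β-catenin on DNA, recognize a short core motif. The letters CTTTGAT were searched on both strands, as CTTTGAT or ATCAAAG, in RefSeq windows (GRCm38.p6) from 250 bases before to 50 bases after each start. Windows were found for 85 of the 130 raised genes and 50 of the 60 lowered genes. The motif was in 5 of 126 windows of raised genes (3.97%), in 0 of 70 windows of lowered genes and in 323 of 13452 windows of all genes tested (2.4%). The raised genes with a match were *Tnfrsf19*, *Dach1*, *Greb1*, *Sox6* and *Sgms2*. The first 3 were called whichever library was left out. The *Tnfrsf19* window lies inside the gene (chr14:60963875-61046490), at an internal start and not at the outermost one. Only their windows with a match follow, on the strand of the gene, with the motif in capitals.
Tnfrsf19, chr14:61037938-61038237, minus strand: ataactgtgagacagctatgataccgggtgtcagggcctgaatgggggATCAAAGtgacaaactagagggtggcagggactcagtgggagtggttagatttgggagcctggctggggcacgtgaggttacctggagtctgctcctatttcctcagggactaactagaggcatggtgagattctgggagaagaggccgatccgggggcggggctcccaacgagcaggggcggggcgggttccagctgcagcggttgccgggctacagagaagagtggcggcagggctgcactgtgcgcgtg
Dach1, chr14:98169716-98170015, minus strand: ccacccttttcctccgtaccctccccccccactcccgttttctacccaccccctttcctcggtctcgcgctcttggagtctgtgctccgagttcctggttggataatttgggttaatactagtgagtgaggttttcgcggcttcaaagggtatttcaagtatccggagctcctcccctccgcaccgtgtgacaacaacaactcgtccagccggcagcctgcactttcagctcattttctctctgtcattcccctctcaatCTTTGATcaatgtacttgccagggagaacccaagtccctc
Greb1, chr12:16757190-16757489, minus strand: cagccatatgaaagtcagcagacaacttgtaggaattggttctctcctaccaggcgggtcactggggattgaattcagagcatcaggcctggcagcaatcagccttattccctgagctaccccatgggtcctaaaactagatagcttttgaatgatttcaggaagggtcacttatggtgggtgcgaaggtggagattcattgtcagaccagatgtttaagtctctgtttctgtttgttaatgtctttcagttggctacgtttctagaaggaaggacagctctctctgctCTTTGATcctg
A match is a run of letters and not a measured binding site.

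The largest residual rises were of genes with low counts in low CHIR. *Chrna6*, a nicotinic acetylcholine receptor subunit, was at 0 and 0 in Cre positive and 21 and 12.9 in *Ctnnb1* sgRNA libraries in low CHIR, and at 32.3 and 35.2 (Cre) and 669 and 453 (Cas9) in high CHIR. Both lines separated by dose, and the log2 fold change over the 8 libraries was 5.05 ± 0.32 (limma adjusted p = 3.09e-05) against 5.80 ± 0.49 in the controls. *Ffar4*, a receptor for long-chain fatty acids, went from a range of 1.29 to 4.59 to one of 54.6 to 196, and *Plet1*, an epithelial surface protein, from a range of 2.58 to 36.6 to one of 218 to 787. *Padi2*, a peptidylarginine deiminase, went from a range of 1.29 to 30.2 to one of 72.9 to 357, and *St8sia6*, a sialyltransferase, from a range of 10.3 to 36.6 to one of 143 to 399.

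These 4 genes were called in every fit that left out 1 library, and their log2 fold changes of 5.02 for *Ffar4*, 4.75 for *Plet1*, 4.32 for *Padi2* and 3.55 for *St8sia6* compare with 6.41, 6.10, 5.97 and 4.27 in the controls. The remaining genes of the 12 raised most, at a mean of at least 50 normalized counts, were *Asgr1* (4.26), *Psd2* (4.11), *Adgra1* (3.73), *Gm14226* (3.56) and *AC141471.4* (4.81), with *Wnt4* and *Heyl*. For *Psd2* and *AC141471.4* the response was called smaller than in the controls (7.07 and 8.40).

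Among genes of NPC self-renewal, *Cited1* was lowered most. *Cited1* (GRCm38 chrX:102247381-102252181), a transcriptional coactivator that marks the least committed NPCs, was read at 8293 and 4845 in Cre positive and 10777 and 12223 in *Ctnnb1* sgRNA libraries in low CHIR. High CHIR lowered it to 2479 and 1855 (Cre) and 1956 and 2261 (Cas9) after removal, but to 34.1 to 94.8 in the controls. The log2 fold change was -2.01 ± 0.21 (limma adjusted p = 0.00115) against -7.0 ± 0.33, a difference of 4.99 ± 0.44 (adjusted p = 2.72e-05). Removal libraries in high CHIR therefore kept *Cited1* well above the controls at the same dose.

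Over the 20 tested self-renewal genes, 2 were lower (*Cited1* and *Robo2*) and 1 higher (*Cited2*) after removal, with a median of -0.28, against 13 lower and 2 higher with a median of -1.18 in the controls. After removal 0.358% of all genes were called lower and 0.775% higher, and in the controls 8.16% and 6.01%. Under the replicate block 5 of the 20 were lower and 2 higher after removal, where 2.18% and 3.35% of all genes were. In the separate wild-type NPC libraries *Cited1*, *Robo2* and *Cited2* had log2 fold changes of -4.74, -2.47 and -0.10. *Robo2*, a Slit receptor, fell from a range of 6371 to 9551 to one of 2117 to 5859, and its call was lost without Cas9 low CHIR replicate 1 (0.0624) or Cas9 low CHIR replicate 2 (0.0622), adjusted p in brackets. *Cited2*, a paralogue of *Cited1* that is not specific to NPCs, rose by 1.32 ± 0.23, and its call was kept in 3 of 8 fits and lost without Cas9 low CHIR replicate 1 (0.0624), Cas9 low CHIR replicate 2 (0.054), Cre low CHIR replicate 1 (0.0548), Cas9 high CHIR replicate 1 (0.0905) or Cas9 high CHIR replicate 2 (0.077). *Osr1*, a transcription factor of early kidney mesenchyme, was read at 1349 to 1966 in low and 1063 to 2512 in high CHIR after removal, where the controls fell from a range of 943 to 1507 to one of 71.9 to 138. Its responses of 0.05 ± 0.18 and -3.72 ± 0.24 differed by 3.76 ± 0.33 (limma adjusted p = 2.31e-05).

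*Six2*, the master regulator of NPC identity, was at 1849 to 2080.2 in low and 1473 to 1833 in high CHIR after removal. The groups did not overlap, but the log2 fold change of -0.27 ± 0.12 did not pass (limma adjusted p = 0.378), nor did the difference from the -1.39 ± 0.33 of the controls (adjusted p = 0.13). *Eya1*, the phosphatase partner of Six2, had -0.36 ± 0.12 after removal (adjusted p = 0.237) and -1.02 ± 0.17 in the controls. *Meox2*, *Tmem100*, *Crym* and *Tcf7l1* were called different between the responses, each falling in the controls by 1.93 or more on the log2 scale and having residual values of -0.54, -0.30, 0.51 and -0.33.

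Genes lowered most outside these lists included secreted and signaling proteins. *Matn1*, a cartilage matrix protein, fell from a range of 51.5 to 249.8 to one of 7.37 to 23.8 after removal, and *Wscd1* from a range of 85 to 413 to one of 21.9 to 35.3. Both doses were apart, with log2 fold changes of -3.03 ± 0.44 and -2.93 ± 0.38. *Tgfbi*, an extracellular matrix protein induced by Tgfβ, was read at 13035 and 6209 in Cre positive and 14106 and 12477 in *Ctnnb1* sgRNA libraries in low CHIR and at 4602 and 2824 (Cre) and 2782 and 2742 (Cas9) in high CHIR. Its log2 fold change of -1.79 ± 0.26 (limma adjusted p = 0.00622) compares with -1.82 ± 0.18 in the controls, a difference of 0.03 ± 0.33. *Frat1*, an inhibitor of Gsk3, fell from a range of 169.9 to 366 to one of 65.6 to 104, with log2 fold changes of -1.72 ± 0.25 after removal and -2.80 ± 0.26 in the controls. *Khdrbs2*, an RNA-binding protein, fell from a range of 565 to 1076 to one of 111 to 303, while the controls held 58.6 to 132 in low CHIR.

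*Il33*, an alarmin of the interleukin-1 family, was abundant, at 11288 and 6680.5 in Cre positive and 21581 and 25188 in *Ctnnb1* sgRNA libraries in low CHIR. It was at 4206 and 685 (Cre) and 3752 and 3649 (Cas9) in high CHIR after removal, and at 34.2 to 263 in the controls. The residual log2 fold change of -2.50 ± 0.42 (limma adjusted p = 0.0143) was smaller than the intact one of -7.42 ± 0.35 (adjusted p of the difference = 6.98e-04), and its call was lost without Cas9 low CHIR replicate 1 (0.0624), Cas9 low CHIR replicate 2 (0.0698), Cas9 high CHIR replicate 1 (0.0741) or Cas9 high CHIR replicate 2 (0.0574), adjusted p in brackets. *Penk*, the proenkephalin precursor, had a log2 fold change of -2.32 ± 0.43 with the call lost without Cas9 low CHIR replicate 1 (0.101), and *Flrt1* one of -2.31 ± 0.35 with the call lost without Cas9 low CHIR replicate 1 (0.0506). Of the 12 genes lowered most without overlap, at a mean of at least 50 normalized counts, the remaining 3 were *Nrgn*, *Steap4* and *Slc16a4*. Their log2 fold changes were -1.65, -1.60 and -1.56, and they were called in 4, 2 and 5 of the 8 fits that left out a library.

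To place the response on genes chosen without any of these 16 libraries, genes were taken from the wild-type NPC libraries, in which high against low CHIR raised 694 of 17411 genes (3.99%) and lowered 628 (3.61%) by at least 1 on the log2 scale. Of the raised genes 574 were tested here. In the intact controls 258 of them were called higher, where 6.01% of all genes were. Their median log2 fold change was 1.96 in the wild-type libraries that chose them and 0.87 in the intact controls. After removal it was 0.31, 36% of the intact median, and the 4 replicate pairs of the removal libraries gave medians of 0.22 to 0.42 (SD = 0.0937). Of the 574, 428 (74.6%) had a positive residual value, where 50.3% of all genes did. After removal 47 (8.19%) were called higher and 5 lower, where 0.775% and 0.358% of all genes were. Of the lowered genes 607 were tested, with medians of -2.05 in wild type and -1.16 in the controls. The controls called 366 of them lower, where 8.16% of all genes were. After removal the median was -0.23, 19.9% of the intact median. The replicate pairs gave -0.30 to -0.16 (SD = 0.067), and 425 (70%) had a negative residual value, where 49.7% of all genes did. After removal 30 (4.94%) were called lower and 7 higher, where 0.358% and 0.775% of all genes were. The difference from the intact response was called toward zero for 63 raised and 160 lowered genes, and away from zero for 1 and 2. Over all genes 1.84% were called with a more positive response after removal and 0.602% with a more negative one.

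The residual medians grew with the size of the wild-type response. Raised genes with a wild-type log2 fold change of 1 to 2, 2 to 3 and 3 or more had residual medians of 0.17 (n = 297), 0.54 (n = 164) and 0.77 (n = 113). The intact medians of the same genes were 0.46, 1.48 and 2.27. Lowered genes had residual medians of -0.14 (n = 296), -0.30 (n = 145) and -0.40 (n = 166), beside intact medians of -0.71, -1.41 and -2.18. At each size the residual median thus stood nearer zero for lowered than for raised genes.

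**Figure D3:**
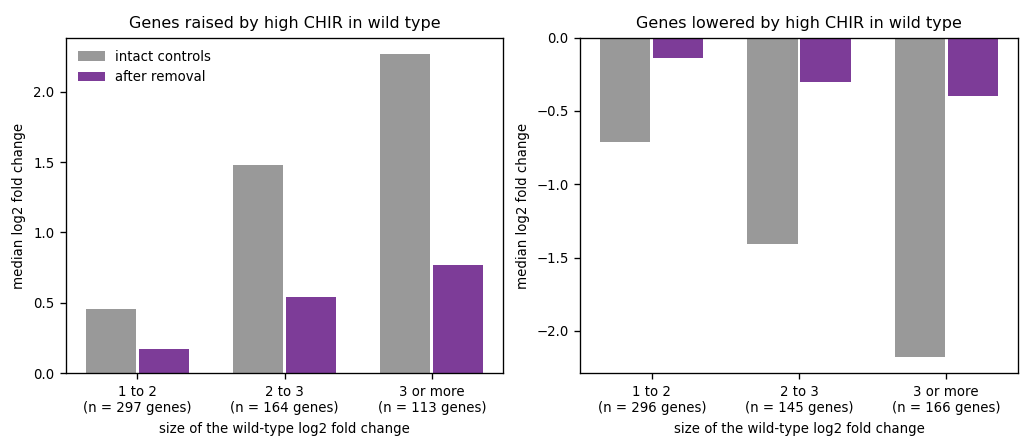
Bars are median log2 fold changes of high over low CHIR (y axis) in the intact controls (grey) and after removal (purple), for genes raised (left) or lowered (right) by high CHIR in wild-type NPCs, grouped by the size of the wild-type change (x axis). The purple bars grow from 0.17 to 0.77 for raised genes and from -0.14 to -0.40 for lowered genes, each shorter than the grey bar beside it.

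A few genes rose with the dose after removal but not in the controls. Of the 22 raised genes that the controls did not call and the 4 that they called lower, and of the 7 lowered genes that the controls did not call, the 8 with the lowest p for the difference were *Rgs4*, *Olfml2a*, *Adamts15*, *Dkk2*, *Peg10*, *E030013I19Rik*, *Pmp22* and *Pdlim1*. *Dkk2*, a secreted modulator of Wnt receptors, was read at 327 and 376 in Cre positive and 384 and 197 in *Ctnnb1* sgRNA libraries in low CHIR and at 988 and 1359 (Cre) and 546 and 1047 (Cas9) in high CHIR. In the controls it fell from a range of 141 to 235 to one of 8.99 to 32.2. The log2 fold changes of 1.59 ± 0.25 (limma adjusted p = 0.00934) and -3.20 ± 0.41 (adjusted p = 3.76e-04) had opposite signs and differed by 4.79 ± 0.54 (adjusted p = 2.32e-04).

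*Olfml2a*, an extracellular olfactomedin-like protein, rose from a range of 139 to 366 to one of 396 to 1330.0 after removal and fell from a range of 79.7 to 237 to one of 1.5 to 6.7 in the controls. The responses of 1.64 ± 0.27 and -4.78 ± 0.47 differed by 6.43 ± 0.56 (limma adjusted p = 2.31e-05), and the residual call was lost without Cas9 low CHIR replicate 1 (0.0583) or Cas9 high CHIR replicate 2 (0.0521), adjusted p in brackets. *Rgs4*, a regulator of G-protein signaling, went from a range of 258 to 708 to one of 704 to 1401 after removal, with overlap between the doses, and from a range of 64.6 to 242 to one of 3.11 to 6 in the controls. Its responses were 1.17 ± 0.22 and -4.89 ± 0.46 (adjusted p of the difference = 1.24e-05), and the residual call was kept in 3 of 8 fits and lost without Cas9 low CHIR replicate 1 (0.0876), Cre low CHIR replicate 2 (0.0661), Cas9 high CHIR replicate 1 (0.0733), Cas9 high CHIR replicate 2 (0.118) or Cre high CHIR replicate 1 (0.0529).

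*Peg10*, an imprinted gene derived from a retrotransposon, was read at 739 and 1066 in Cre positive and 1398 and 891 in *Ctnnb1* sgRNA libraries in low CHIR and at 1946 and 2116 (Cre) and 2984 and 3225 (Cas9) in high CHIR, with 1.33 ± 0.17 after removal and -0.83 ± 0.21 in the controls. *Adamts15*, a metalloprotease, rose from a range of 43 to 102 to one of 225 to 478, by 2.41 ± 0.30, where the controls gave -0.66 ± 0.30. *Pmp22*, a myelin membrane protein, and *Pdlim1*, an actin-associated protein, rose by 1.65 ± 0.23 and 1.34 ± 0.20, with -0.68 ± 0.26 and -0.60 ± 0.28 in the controls. *E030013I19Rik*, a long non-coding RNA, fell from a range of 254 to 556 to one of 127 to 258, with a log2 fold change of -1.18 ± 0.18, while the controls held 652 to 817 and 757 to 927. These 5 genes and *Dkk2* were called in each fit that left out 1 removal library. In the replicate block all 8 were called, as were all 130 raised and all 60 lowered genes. The 8 differences had adjusted p-values of 1.24e-05 to 0.00911 (limma). The genes were chosen for a low p of this difference, so these values follow from the choice.

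**Figure D4:**
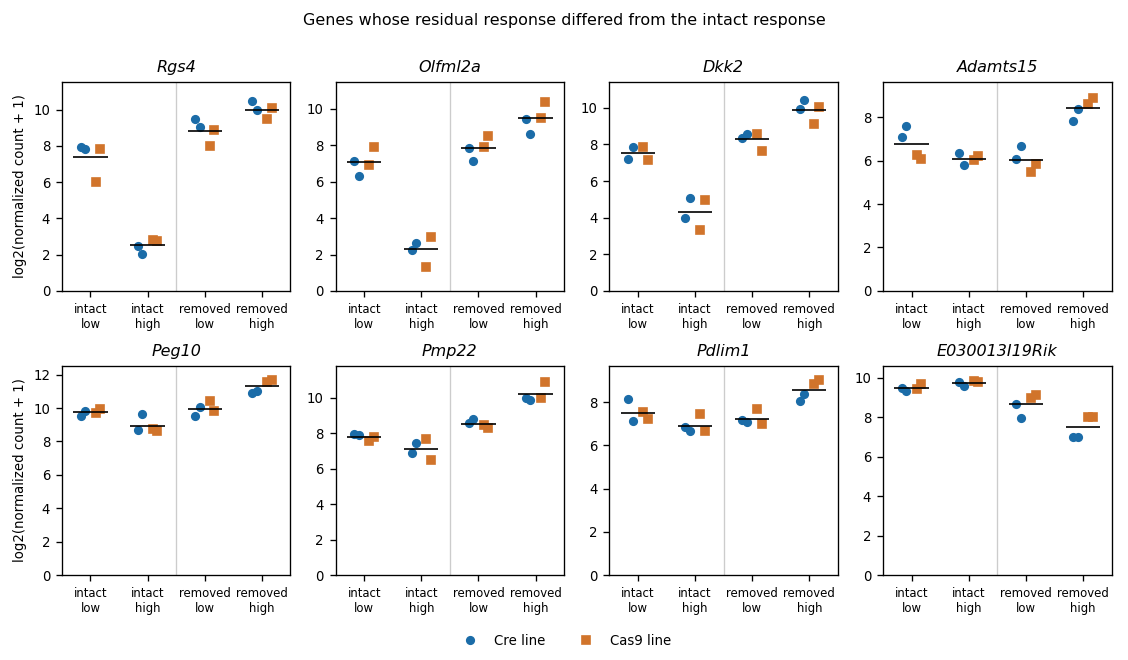
Normalized counts of the 8 genes with the lowest p for the difference between the responses, among those called after removal and not called the same way in the controls, as log2(normalized count + 1) on the y axis, by β-catenin status and CHIR dose on the x axis (circles, Cre line; squares, Cas9 line; bars, means of 4 libraries). In 7 panels the removal libraries in high CHIR have the highest mean of the 4 conditions, and in the panel of *E030013I19Rik* the lowest.

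The genes called in one removal line moved in the same direction in the other. Fitted by line, 50 genes were higher (0.298%) and 16 lower (0.0954%) in the Cas9 line, and 18 higher (0.107%) and 0 lower in the Cre line (limma), where 258 were lower by 0.5 or more at p below 0.05 before adjustment. edgeR and DESeq2 were not run by line. All 50 and all 16 Cas9 calls had the same sign in the Cre libraries, which share no library with them, and 46 and 13 reached 0.5 on the log2 scale there, where 7.53% and 9.24% of all genes did. All 18 Cre calls reached 0.5 in the Cas9 line, where 13.3% of all genes did. Over all genes the responses of the lines had a Pearson r of 0.488 and a Spearman rho of 0.376. The lines carry different alleles and reagents, and the size of a removal effect and the line cannot be told apart in their difference.

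No gene was called different between the lines (limma, 0 of 16780 in either direction). At p below 0.05 before adjustment and a difference of 0.5 or more on the log2 scale, 58 genes had a more positive response in the Cre line and 275 in the Cas9 line. The lowest p-values included *Tnfaip2*, a TNF-induced protein, with log2 fold changes of 1.73 in the Cre and 3.40 in the Cas9 line, and *Cmip*, with 1.62 and 3.0. *Spag11b*, a defensin-like gene, was read at 26.9 and 12.9 in low and 612 and 426 in high CHIR in Cre positive libraries, and at 14.6 and 12.9 and 49.7 and 16.7 in *Ctnnb1* sgRNA libraries, while the 8 controls held 0 to 29.3. *Wnt4* responded alike, with 5.88 and 6.06 (difference -0.18, unadjusted p from the limma fit = 0.768).

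Lists of other processes in which Gsk3 is known to act had 0 or 1 member called after removal, which with 0.775% of all genes called higher and 0.358% lower is not a result about these lists. Of 21 glycogen metabolism genes 0 passed in limma, with 1 higher and 2 lower at p below 0.05 before adjustment, 0 in edgeR, 2 lower in DESeq2 and 2 lower under the replicate block, and the median was -0.16. Of 27 genes of cholesterol synthesis and its regulator SREBP 0 passed, with 1 higher at p below 0.05 before adjustment, 0 in edgeR, 1 higher in DESeq2 and a median of 0.23. For 28 lysosome and Tfeb target genes the count was 0, with 4 higher at p below 0.05 before adjustment, 4 higher under the replicate block, 0 in edgeR and DESeq2, and a median of 0.23. *Gpnmb*, a lysosomal glycoprotein of this list, was read at 12.4 to 209 in low and 132 to 530.4 in high CHIR after removal (log2 fold change 1.93 ± 0.58, limma adjusted p = 0.178, 2.60e-04 under the block). Among 23 genes of the destruction complex and catenins 0 passed, with 2 higher at p below 0.05 before adjustment, 0 in edgeR and 1 higher in DESeq2.

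Of 24 targets of Nrf2, the regulator of the oxidative stress response, none was called in limma. At p below 0.05 before adjustment 12 were higher and none lower, where 1117 and 905 of all 16780 genes were. Of the 24, 1 was called higher in edgeR, 4 in DESeq2 and 8 under the replicate block, where 166, 358 and 562 of all genes were. The median was 0.44 after removal and 0.36 in the controls. *Hmox1*, heme oxygenase, was read at 687 and 731 in Cre positive and 883 and 546 in *Ctnnb1* sgRNA libraries in low CHIR, and at 1248 and 1019 (Cre) and 1381 and 1165 (Cas9) in high CHIR. The doses did not overlap, and the log2 fold change of 0.77 ± 0.16 missed the threshold (limma adjusted p = 0.0524) and passed it under the block (0.00107).

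Of 26 genes of ATF4 and the unfolded protein response, 1 was higher in limma and none lower, with a median of 0.92 after removal and 0.95 in the controls. Over all genes 0.775% were called higher and 0.358% lower after removal. At p below 0.05 before adjustment 8 of the 26 were higher and none lower, where 1117 and 905 of all 16780 genes were. Under the replicate block 19 were higher and 1 lower, where 3.35% and 2.18% of all genes were. Without Cre positive high CHIR replicate 2 the limma count was 9 higher and 1 lower, where 189 and 74 of all genes were. Without either Cas9 *Ctnnb1* sgRNA library in high CHIR, or without Cas9 low CHIR replicate 2, the limma count for the list was 0. The 1 gene was *Atf3*, a stress-induced transcription factor, read at 35.8 to 73.1 in low and 120.2 to 292 in high CHIR after removal (log2 fold change 1.85 ± 0.32, limma adjusted p = 0.0167).

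**Figure D5:**
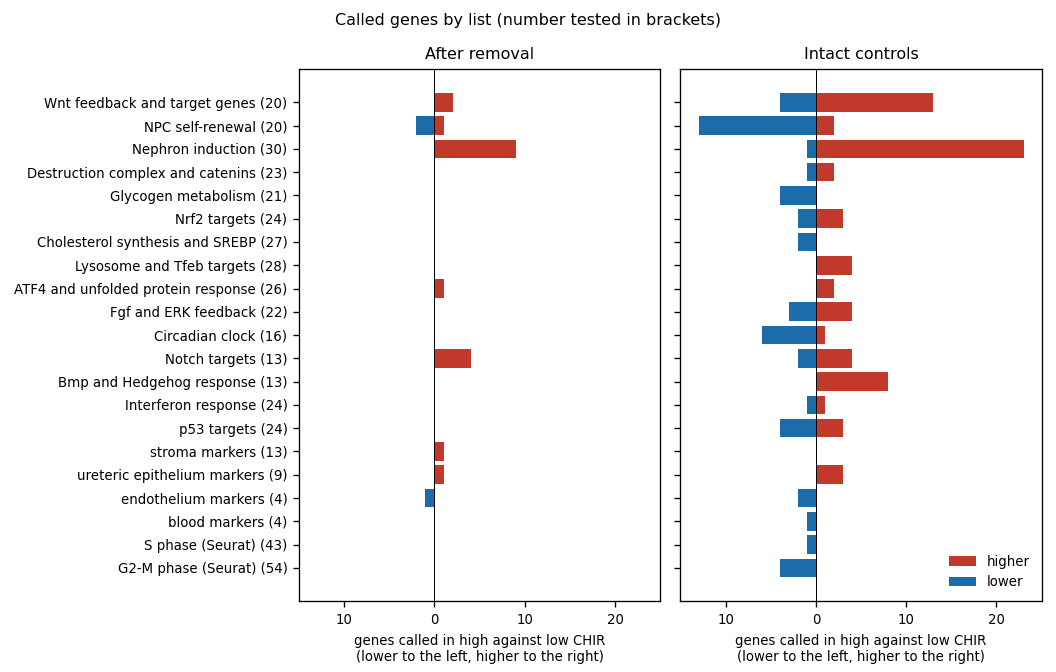
Horizontal bars count the genes of each list that were called higher (red, to the right) or lower (blue, to the left) by high CHIR (x axis), after removal (left) and in the intact controls (right), with the number of genes tested in brackets. After removal the longest bars are those of nephron induction, with 9 genes higher, and Notch targets, with 4 higher.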

How the data were processed

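RNA of sorted NPCs was made into cDNA libraries with the SMARTer kit and sequenced as paired ends. Per the labels' processing notes and the methods, the authors aligned the reads with STAR to a joint reference of the mouse (GRCm38) and human (GRCh38) assemblies, counted reads per gene with featureCounts and normalized them with DESeq2. The deposited signal is thus a normalized count, the reads of a gene divided by 1 size factor per library. Every value was a whole multiple of the worth of 1 read within a tolerance of 0.02 reads (100% of values), which gave the depth. In 2 libraries, Cas9 GFP sgRNA low CHIR replicate 1 and Cre positive high CHIR replicate 1, 1 read was worth 0.994 and 1.01 normalized counts, a separate search for this step did not find it, and these were left out of the count tests. The authors' comparison tables, which hold fold changes and p-values, and the table of Tcf/Lef removal were not used, 61 columns of per-sample values in all.

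Genes whose mean over the 16 libraries reached 10 normalized counts entered limma 3.58.1 (R 4.3.3, variance trend), fitted to log2(normalized count + 1). Fold changes are on that scale and understate the change of low genes. The residual and intact responses used 8 libraries each with the line as a block, and their difference and that of the lines used group means. Wild-type genes came from a fit of 9 libraries. Adjustment of p-values (Benjamini-Hochberg) ran over all genes tested. Same-numbered libraries of a line deviated together from their group means (correlations of 0.142 and 0.518 for the Cas9 and Cre removal lines, 0.196 and 0.361 for their controls), so the replicate number within a line was also fitted as a block. edgeR 4.0.16 and DESeq2 1.42.0 were run on the recovered reads of 7 libraries each as alternatives. The fits were tested on simulated data.

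The contrast, its gene lists and its tests were chosen with earlier results of these data known. S and G2-M lists were those of Seurat 5.3.0. Named were *Ctnnb1*, 10 genes fixed by name, up to 6 called genes of each list (otherwise 2 of lowest p), the 12 raised and 12 lowered most without overlap between doses at a mean of at least 50 normalized counts, 8 that differed most from the controls and 6 that differed most between the lines. Places are from GENCODE vM21 (GRCm38) and promoters from RefSeq (GRCm38.p6). *Greb1*, *Sox6*, *Sgms2*, *Hes1* and the list members given without error were named after their values were seen.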

Additional observations from a re-analysis of the deposited data

Results flagged for a closer look

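The test of the difference between the residual and the intact response (removed minus intact, limma, adjusted p under 0.05, log2) called 21 of the genes named by the fixed rule. Some of them were named because they differed most from the controls, so their calls follow partly from that choice. Among genes that rose less after removal, the difference was -2.80 for *Wnt4*, -1.91 for *Jag1*, -2.48 for *Lef1*, -3.59 for *AC141471.4* and -2.96 for *Psd2*. Among genes that fell less after removal it was 4.99 for *Cited1*, 2.82 for *Robo2*, 4.92 for *Il33*, 3.68 for *Steap4* and 1.80 for *Plvap*. It was 3.76 for *Osr1*, which fell in the controls and not after removal. Among genes that rose after removal and not in the controls, the difference was 6.05 for *Rgs4*, 6.43 for *Olfml2a*, 3.07 for *Adamts15*, 4.79 for *Dkk2*, 2.16 for *Peg10*, 2.33 for *Pmp22*, 1.94 for *Pdlim1* and 2.36 for *Krt19*. It was -1.45 for *E030013I19Rik*, which fell after removal.

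The difference for *Spag11b* was 5.58, and its residual response did not pass (adjusted p = 0.0722). Its high CHIR values after removal were 612 and 426 normalized counts in the Cre line and 49.7 and 16.7 in the Cas9 line, so that the value rests mostly on the Cre line.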

How the results depend on the processing

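The counts of the residual response moved with the fit. The replicate block gave 562 raised and 366 lowered genes, DESeq2 on the recovered reads 358 and 260, and a fit without the line as a block 65 and 22. edgeR gave 166 and 84. Both count tools left out Cre positive high CHIR replicate 1, without which limma gave 163 and 92. Leaving out 1 removal library at a time gave 69 to 189 raised and 17 to 92 lowered genes. In the controls, leaving out 1 library gave 591 to 1186 raised and 876 to 1338 lowered genes. For the difference between the responses the replicate block gave 634 more positive and 246 more negative genes, and leaving out 1 library 205 to 286 and 57 to 113. Genes chosen at a wild-type log2 fold change of at least 2 had residual medians of 0.63 and -0.34. The sign turned for *Ctnnb1*, with 0.03 in edgeR and 0.02 in DESeq2, and over the fits that left out 1 library *Ctnnb1* ranged from -0.19 to 0.07, *Osr1* from -0.09 to 0.23 and *Mast4* from -0.06 to 0.30. None of these 3 was called, and the cause of the changes was not tested. Over the named genes, 951 of the other values kept their direction and their side of the thresholds, 37 lost the call and 36 gained it, and without 1 library the numbers were 610, 63 and 7. With 2 libraries a group, genes at low counts are limited by depth, and the leave-one-out fits have fewer samples.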

Other observations

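Of 13 genes of Bmp and Hedgehog signaling tested, 8 were called higher in the controls, where 6.01% of all genes were. After removal 0 were called in limma, where 0.775% of all genes were higher, so the 0 is not a result about these genes. At p below 0.05 before adjustment 7 were higher, where 1117 of all 16780 genes were. Of the 13, 1 was called higher in edgeR, 5 in DESeq2 and 6 under the replicate block. Over all genes these counts were 166, 358 and 562. The medians were 0.80 in the controls and 0.54 after removal. The difference between the responses was called for 0 of the 13 (limma). *Ptch1*, the Hedgehog receptor and target, was read at 198 to 342 in low and 373 to 642 in high CHIR after removal, without overlap, and at 759 to 1457 in the controls in high CHIR (residual log2 fold change 0.88 ± 0.20, limma adjusted p = 0.0696, and 0.00326 under the block). *Hhip*, the Hedgehog-binding inhibitor, was read at 0 to 4.57 and 6.16 to 47.5 after removal.

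With 0.775% of all genes called higher and 0.358% lower, 0 calls in a list of these sizes is not a result about its members. Of 43 S-phase genes 0 passed in limma, edgeR and DESeq2 and 1 was higher under the replicate block, with 4 higher at p below 0.05 before adjustment, and of 54 G2-M genes 0 passed in all 3, with 3 higher and 2 lower. Their median log2 fold changes were 0.05 and 0.07. Of 24 interferon genes 0 passed in any of the 3, also at p below 0.05 before adjustment. Of 24 p53 targets 0 passed in limma and edgeR and 2 were higher in DESeq2 and 4 higher and 1 lower under the block, with 5 higher and 1 lower at p below 0.05 before adjustment. Of 16 clock genes 0 passed in all 3 and 1 was higher and 1 lower under the block, with 2 higher and 2 lower at p below 0.05 before adjustment. Of 22 genes of Fgf and ERK feedback 0 passed in limma, with 3 higher and 5 lower at p below 0.05 before adjustment, 1 lower in edgeR, 2 higher and 2 lower in DESeq2, and 3 higher and 1 lower under the block. *Egr2*, an immediate-early gene of that list, had -1.43 ± 0.39 after removal (limma adjusted p = 0.127, and 4.63e-05 under the block).

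Of 13 stromal markers tested, 1 was called higher, and 4 were lower at p below 0.05 before adjustment and 5 under the replicate block, with a median of -0.53. *Pdgfrb*, a pericyte and stromal receptor, rose from a range of 574 to 1317 to one of 1494 to 3315 normalized counts after removal (limma adjusted p = 0.0193), a call lost without Cre low CHIR replicate 1 (0.0633), Cas9 high CHIR replicate 1 (0.104) or Cas9 high CHIR replicate 2 (0.077). The summed stromal list was 14983 to 32853 in low CHIR and 10887 to 26026 in high CHIR. *Plvap*, an endothelial diaphragm protein, fell from a range of 577 to 1379 to one of 249 to 513 (adjusted p = 0.0321), a call kept in 3 of 8 fits, while *Cdh5*, *Tek*, *Pecam1* and *Kdr* reached at most 21.9 in any removal library. The summed endothelial list was 2266 to 2352 in low and 1266 to 2099 in high CHIR. *Krt19*, an epithelial keratin, rose from a range of 30.0 to 60.5 to one of 106 to 258 (adjusted p = 0.0468), a call kept in 1 of 8 fits. Of 4 blood genes tested 0 passed in limma and edgeR and 1 was lower in DESeq2, with 3 lower at p below 0.05 before adjustment, 2 lower under the block and a median of -1.41. The part of other cell types in the residual response was not tested.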
